A study of Mus musculus with 2 samples.

Results

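Naive and stem-like T cells are held in their state by a small group of nuclear factors, and the genes of 10 of them (Tcf7, Lef1, Satb1, Bach2, Foxp1, Foxo1, Klf3, Myb, Id3 and Bcl11b) were followed in CD4 T cells sorted from mouse spleen. They were taken by gene symbol from a table of 35275 genes, and all 10 were found and had enough reads to be compared. RNA came from TEa cells of the C57BL/6 strain, CD4 T cells with a transgenic receptor for a peptide of I-E alpha, a class II chain that BALB/c mice have. In the exhausted group the cells had been transferred into CB6F1 mice, which are BALB/c by C57BL/6 hybrids and carry the antigen in their own tissues. In the effector group they had been transferred into wild-type C57BL/6 mice that received a BALB/c skin graft, so the amount of antigen, the recipient strain and the graft differed together and cannot be told apart. The group names are the submitters' titles. No source used here gives the time after transfer, the number of mice or any pooling.

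Each group held 1 library, with 8508129 counted reads in the exhausted library and 7844445 in the effector library. The spread between animals is unknown, so a ratio describes this pair of libraries, with a 95% interval for counting error alone, and no p-value was computed. Copies made by PCR during low-input library construction may have been counted as separate reads, which would make the intervals too narrow. Genes were taken as measured from 50 reads upwards, summed over both libraries (9999 genes). A measured gene was called higher or lower if its scaled counts differed at least 2-fold and the interval of the ratio, exhausted over effector, excluded equality. The cells carried T cell genes in both libraries: the 7 T cell markers Cd3e, Cd3d, Cd3g, Cd4, Trac, Cd5 and Lck summed to 76285 reads in the exhausted and 72422 reads in the effector library. Single markers differed both ways: the receptor gene Trac was called lower, at a ratio of 0.473 (11561 reads in the exhausted and 22526 in the effector library), Lck was at 0.782, and the other 5 had ratios from 1.14 (Cd3d) to 1.57 (Cd5). Of 44 markers of other spleen cells, 11 had 0 reads in both libraries and 6 were measured. The summed reads of all 44 were 692 in the exhausted and 644 in the effector library. Single lists differed both ways. NK markers had 231 reads in the exhausted and 61 in the effector library, and macrophage markers 209 in the exhausted and 91 in the effector library. CD8 markers had 81 reads in the exhausted and 164 in the effector library, all of them of Cd8b1, while Cd8a had 0 reads in both. Erythroid or megakaryocyte markers had 13 in the exhausted and 96 in the effector library. In bulk RNA of sorted cells, fewer cells that express a gene and less RNA of it per cell cannot be told apart.

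As background, Tcf7 encodes TCF1 and Lef1 its close relative, DNA-binding factors that keep naive, memory and stem-like T cells able to renew. FOXO1 and KLF factors keep genes of lymph node homing and survival active in resting T cells, and FOXP1 is needed for their quiescence. BACH2 represses effector genes, SATB1 and BCL11B organise the chromatin and identity of the T lineage, MYB supports stem-like T cells, and ID3 binds E proteins and keeps them off DNA. In exhausted CD8 T cells of mice, a subset with high TCF1 renews the population.

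The 10 genes did not move as a block. Id3 and Myb were higher in the exhausted library, Satb1, Foxo1 and Bcl11b were lower, and Tcf7, Lef1, Klf3, Foxp1 and Bach2 stayed within 2-fold. That is 5 of 10 called, against 13.7% of all 9999 measured genes. In single directions it is 2 of 10 higher, against 6.62% of measured genes, and 3 of 10 lower, against 7.09%. All 10 genes were well counted, with at least 1304 reads over both libraries. Among the 6143 genes with at least 500 reads, 8.27% were called (3.97% higher and 4.3% lower). The median absolute log2 ratio was 0.64 over the 10 genes and 0.32 over all measured genes. With sign, the median was -0.12 over the 10 genes and -0.006 over all measured genes. Together the 10 genes took 0.544% of counted reads in the exhausted library and 0.575% in the effector library, although single genes differed in opposite directions.

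**Figure D1:**
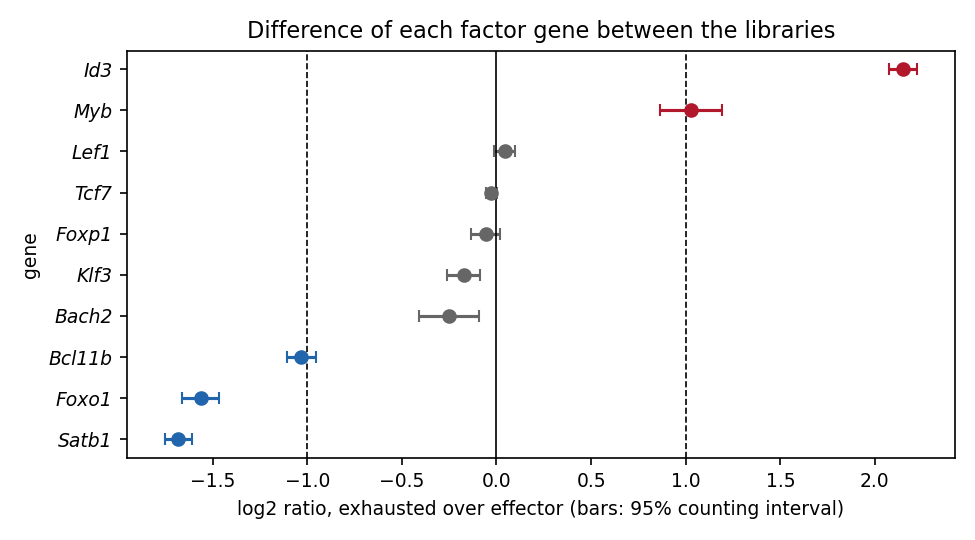
Log2 ratio of each factor gene, exhausted over effector, with its 95% counting interval as a bar. Dashed lines mark 2-fold, red points were called higher, blue points lower and grey points neither. Id3 lies farthest right at 2.15 and Satb1 farthest left at -1.68, and the bars of Myb and Bcl11b cross the 2-fold lines.

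Myb and Bcl11b passed the 2-fold limit narrowly, at 2.04-fold higher and 2.04-fold lower. The nearest gene that did not reach it was Bach2, at 1.19-fold lower. Against all measured genes, 193 had a higher log2 ratio than Id3 and 319 had a lower one than Satb1, whereas 4800 lay below Tcf7.

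Stricter rules kept fewer of the genes. When the whole interval had to lie beyond 2-fold, 3 of 10 passed (Id3 higher, Satb1 and Foxo1 lower), against 8.61% of measured genes (4.05% higher and 4.56% lower). At 4-fold or more Id3 alone passed, against 4.61% of measured genes (2.2% higher and 2.41% lower).

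**Figure D2:**
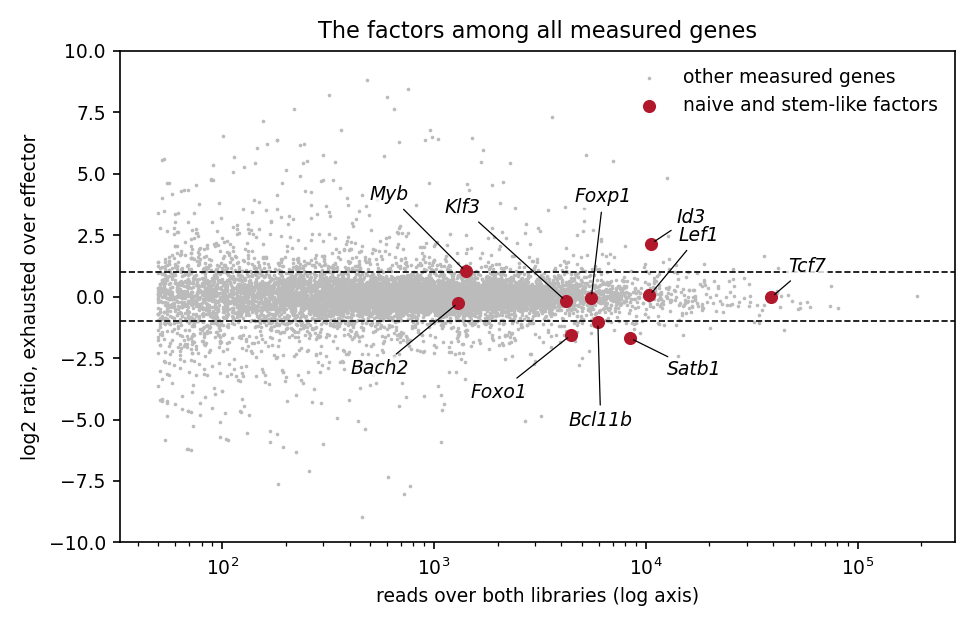
Log2 ratio of every measured gene, exhausted over effector, against its reads over both libraries on a log axis. Red points are the 10 factor genes and grey points the other measured genes, with dashed lines at 2-fold. The red points lie among the well counted genes, Tcf7 far to the right near 0, Id3 above the band and Satb1, Foxo1 and Bcl11b at or below its lower edge.

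The promoter windows of the 5 called genes are printed because these genes differed between the libraries in opposite directions. They are RefSeq windows of build GRCm38.p6, from 250 bases before to 50 bases after the annotated start nearest to the start given in the deposited table, read 5′ to 3′ on the gene's strand. That start coincided with the table's in Satb1 and Foxo1 and lay 79 bases from it in Myb, 188 in Bcl11b and 325 in Id3. Among the windows that were searched but not printed, the start lay 178631 bases from the table's in Bach2, 1728 in Foxp1 and 148 in Lef1. The windows of Bach2, Foxp1 and Lef1 therefore do not cover the table's start of these genes. Of the printed windows, that of Id3 lies wholly downstream of the table's start and that of Myb wholly upstream of it. The last 50 bases of the Lef1 window were found in no GENCODE transcript of that gene. Capitals mark letters of motifs named for the factors: the E-box CANNTG of E proteins, the TCF/LEF motif CTTTGA and the forkhead motif GTAAACA, on both strands.
Id3, chr4:136143572-136143871, plus strand: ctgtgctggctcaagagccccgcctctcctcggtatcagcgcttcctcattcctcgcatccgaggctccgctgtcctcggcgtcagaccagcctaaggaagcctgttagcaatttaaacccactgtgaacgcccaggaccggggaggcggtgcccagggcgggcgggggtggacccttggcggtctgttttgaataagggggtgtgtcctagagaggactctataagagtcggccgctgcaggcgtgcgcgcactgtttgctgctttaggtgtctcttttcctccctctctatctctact
Myb, chr10:21160935-21161234, minus strand: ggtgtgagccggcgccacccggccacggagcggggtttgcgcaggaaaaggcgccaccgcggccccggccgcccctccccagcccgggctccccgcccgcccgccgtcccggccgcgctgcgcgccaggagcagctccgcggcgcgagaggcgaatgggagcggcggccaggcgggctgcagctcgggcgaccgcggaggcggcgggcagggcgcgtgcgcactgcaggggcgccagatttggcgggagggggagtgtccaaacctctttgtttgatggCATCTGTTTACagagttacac
Satb1, chr17:51833241-51833540, minus strand: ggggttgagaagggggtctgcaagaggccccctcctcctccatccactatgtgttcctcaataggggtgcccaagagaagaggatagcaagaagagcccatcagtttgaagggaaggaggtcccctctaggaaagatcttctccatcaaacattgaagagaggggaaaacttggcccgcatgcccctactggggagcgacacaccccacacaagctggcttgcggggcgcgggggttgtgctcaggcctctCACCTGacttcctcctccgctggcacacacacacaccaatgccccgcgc
Foxo1, chr3:52268087-52268386, plus strand: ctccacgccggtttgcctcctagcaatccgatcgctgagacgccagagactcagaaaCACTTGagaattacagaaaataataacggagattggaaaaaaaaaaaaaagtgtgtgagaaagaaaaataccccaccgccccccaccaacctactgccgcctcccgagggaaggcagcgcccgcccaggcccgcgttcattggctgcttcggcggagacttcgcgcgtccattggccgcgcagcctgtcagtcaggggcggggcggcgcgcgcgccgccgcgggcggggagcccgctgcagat
Bcl11b, chr12:108003365-108003664, minus strand: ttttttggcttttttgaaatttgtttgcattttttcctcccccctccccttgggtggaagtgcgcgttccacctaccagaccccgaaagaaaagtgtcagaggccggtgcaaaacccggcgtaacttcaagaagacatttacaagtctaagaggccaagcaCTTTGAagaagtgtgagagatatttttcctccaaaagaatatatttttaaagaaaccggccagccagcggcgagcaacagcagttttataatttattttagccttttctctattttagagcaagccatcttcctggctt

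The Id3 window held none of these 3 motifs and is therefore all in lower case. Satb1 held an E-box just after the start and Foxo1 held 1 far upstream of it. In Myb an E-box and a forkhead match overlapped in the run CATCTGTTTAC, and Bcl11b held the TCF/LEF letters. Over the windows of all 10 genes, 1 per gene, 7 held an E-box, against 72.3% of the 32851 mouse windows of the same length. These 32851 windows belong to 27025 gene symbols, so some genes count there with several windows. The TCF/LEF letters were in 2 of 10 (Bach2 and Bcl11b), against 16% of windows, and the forkhead letters in 1 of 10, against 3.65%. Of 3 further motifs, the KLF letters CACCC were in 8 of 10 (57.5% of windows), the MYB letters AACNG in 9 of 10 (80.3%) and TGCTGA, the core letters of the element bound by BACH and MAF proteins, in 1 of 10 (19.5%). MYB letters overlapped an E-box in Foxp1 and both marked motifs in Myb, and KLF letters overlapped an E-box in Klf3. In CpG pairs the windows ranged widely, with 45 in Tcf7, 40 in Myb and 31 in Foxo1, and 8 in Satb1 and 7 in Bach2, against a median of 7 over all windows. A match of letters is a description of the window and no evidence of binding.

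Tcf7 was the most abundant of the 10 genes in either library and differed between them by less than counting error. Tcf7 (ENSMUSG00000000782, mm10 chromosome 11, 52252371 to 52283014, minus strand) had 20198 reads in the exhausted and 18980 in the effector library. Per length this was a level of 961 reads per kilobase of the table's gene length per 1000000 counted reads in the exhausted library and 979 in the effector library, which placed it 26th in the exhausted and 23rd in the effector library among measured protein-coding genes. The log2 ratio was -0.03, with a counting interval of -0.06 to 0.001, and over 6 scalings of the counts it ran from -0.03 to 0.001, so it has no firm sign. Tcf7 made up 43.6% of the reads of the 10 genes in the exhausted and 42.1% in the effector library.

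Its relative Lef1 (ENSMUSG00000027985, chromosome 3, 131110471 to 131224356, plus strand) had 5498 reads in the exhausted and 4913 in the effector library, and levels of 177 in the exhausted and 171 in the effector library. The log2 ratio was 0.05, with an interval of -0.01 to 0.1. Both genes thus differed by less than their counting intervals could separate from equality. The share of Lef1 in the summed level of Tcf7 and Lef1 was 15.5% in the exhausted and 14.9% in the effector library. The other family members, Tcf7l1 and Tcf7l2, were nearly absent, with 1 read each in the exhausted library and 4 (Tcf7l1) and 1 (Tcf7l2) in the effector library.

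**Figure D3:**
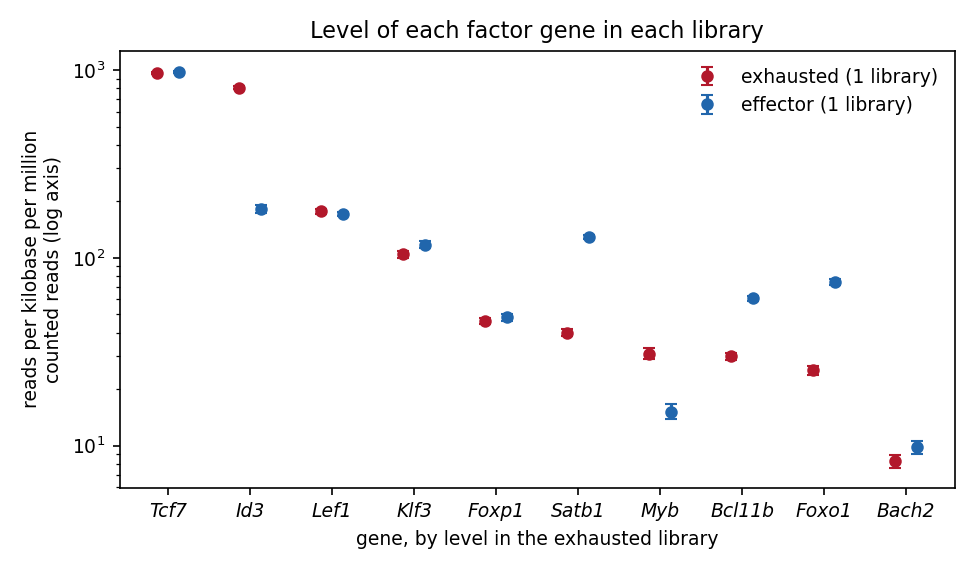
Level of each factor gene in reads per kilobase per 1000000 counted reads, on a log axis, in the exhausted library (red) and the effector library (blue), 1 library each. Bars are exact 95% Poisson intervals of the read count, and genes run from high to low level in the exhausted library. The red and blue points lie together for Tcf7, Lef1, Klf3, Foxp1 and Bach2 and apart for Id3, Satb1, Myb, Bcl11b and Foxo1.

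The list of other TCF/LEF factors and their cofactors held 17 genes, of which 13 were measured. Of these 2 were higher, 1 lower and 10 neither, so 23.1% were called, against 13.7% of all measured genes. The median log2 ratio of the list was 0.13, or -0.10 when genes with as few as 1 read were included. The higher ones were Axin2, a classical target and brake of beta-catenin signalling (271 reads in the exhausted and 81 in the effector library, 3.08-fold, 2.40 to 4.0), and the Groucho corepressor Tle3 (2603 reads in the exhausted and 1127 in the effector library, 2.13-fold, 1.98 to 2.29). The corepressor Tle1 was lower, with 12 reads in the exhausted and 78 in the effector library (7.05-fold, 3.82 to 14.2). Tle4, another Groucho gene, had 1014 reads in the exhausted and 1117 in the effector library and was not called. Ctnnb1, which encodes beta-catenin, had 2955 reads in the exhausted and 1886 in the effector library, a ratio of 1.44 (1.36 to 1.53) that did not reach 2-fold.

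Id3 showed the largest difference of the 10 genes. Id3 (ENSMUSG00000007872, chromosome 4, 136143497 to 136145755, plus strand) had 8771 reads in the exhausted library and 1822 in the effector library, a 4.44-fold higher count (4.22 to 4.67). Its level was 807 in the exhausted and 182 in the effector library, where it ranked 36th and 328th among measured protein-coding genes. In the exhausted library Id3 thus stood next to Tcf7 in level, while in the effector library its interval overlapped that of Lef1.

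Id2, the partner gene that in many lymphocytes goes with effector fate, had 2237 reads in the exhausted and 1240 in the effector library. Its ratio of 1.66 (1.55 to 1.78) did not pass 2-fold. Id3 made up 79.6% of the summed level of Id2 and Id3 in the exhausted library and 59.4% in the effector library. As a share of reads this was 79.7% (78.9 to 80.4) in the exhausted and 59.5% (57.7 to 61.3) in the effector library, with exact Clopper-Pearson intervals. The intervals did not overlap, and a share within a library does not depend on how the libraries were scaled. Id1 had 0 reads in both libraries, which does not show its RNA to be absent, and Id4 had 2 reads in the exhausted and 0 in the effector library.

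Of 8 other genes in the list of E proteins, which ID3 binds, and ID proteins, 4 were measured and 0 passed the rule, which called 13.7% of all measured genes. With 4 genes measured, this tells little about the list. Tcf3, which encodes E2A, had 753 reads in the exhausted and 1112 in the effector library (1.60-fold lower, 1.46 to 1.76). Tcf12, which encodes HEB, had 644 reads in the exhausted and 1136 in the effector library (1.91-fold lower, 1.74 to 2.11). Tcf4, which encodes E2-2, had 39 reads in the exhausted and 18 in the effector library, a ratio of 1.997 just short of 2-fold (1.12 to 3.71). Tcf4 was called higher under 3 of 5 scalings, with log2 ratios from 0.998 to 1.03, and no other of the 88 measured genes of the related lists changed its call with the scaling.

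Myb (ENSMUSG00000019982, chromosome 10, 21124936 to 21160905, minus strand) was the other higher gene, at a much lower level. It had 971 reads in the exhausted and 439 in the effector library, a 2.04-fold higher count (1.82 to 2.29). Its level was 30.9 in the exhausted and 15.2 in the effector library. The counting interval reached below 2-fold, so the call rests on the point estimate.

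Of its relatives Mybl2, which acts in cycling cells, had 91 reads in the exhausted and 95 in the effector library, and Mybl1 had 2 in the exhausted and 4 in the effector library. Myb took 91.2% of the summed level of the family in the exhausted and 81.6% in the effector library. The coactivator gene Ep300, whose product p300 binds MYB, had 2045 reads in the exhausted and 970 in the effector library. Its ratio of 1.94 (1.80 to 2.10) stayed under 2-fold, and Crebbp was at 1.21 (1.12 to 1.31).

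Satb1, which encodes a chromatin organiser that is abundant in thymocytes and naive T cells, was the gene with the strongest decrease among the 10. Satb1 (ENSMUSG00000023927, chromosome 17, 51736187 to 51833290, minus strand) had 2125 reads in the exhausted and 6287 in the effector library, a 3.21-fold lower count (3.06 to 3.37). Its level was 40.0 in the exhausted and 128 in the effector library. It stood 6th of the 10 genes in the exhausted and 4th in the effector library.

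Bcl11b, which encodes a zinc finger factor of T lineage commitment, was lower by a smaller margin. Bcl11b (ENSMUSG00000048251, chromosome 12, 107910403 to 108003602, minus strand) had 2061 reads in the exhausted and 3881 in the effector library (2.04-fold lower, 1.94 to 2.16). Its level was 29.9 in the exhausted and 61.0 in the effector library. Bcl11a, the relative known from B cells, had 2 reads in each library.

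Of 16 further genes in the list of T lineage identity factors 14 were measured, 2 of them higher, 0 lower and 12 neither, so 14.3% were called, near the 13.7% of all measured genes. Their median log2 ratio was 0.29. The receptor gene Notch1 was 2.74-fold higher (3089 reads in the exhausted and 1041 in the effector library, 2.55 to 2.94). Ikzf2, which encodes Helios, was 2.45-fold higher (459 reads in the exhausted and 173 in the effector library, 2.05 to 2.93). Ikzf3 (0.572, 0.507 to 0.646), Runx3 (0.675, 0.602 to 0.757) and Gfi1 (0.747, 0.611 to 0.914) had intervals below 1 without reaching 2-fold. The interval of Zfp281 ended just below 1 (0.912, 0.833 to 0.999). More of the uncalled genes had intervals above 1: Runx1 (ratio of 1.786), Gata3 (1.65), Zbtb1 (1.59), Cbfb (1.488), Zbtb7b (1.365) and Ets1 (1.094). The intervals of Ikzf1 and Elf1 included 1.

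Foxo1 was also lower. Foxo1 (ENSMUSG00000044167, chromosome 3, 52268337 to 52350109, plus strand) had 1190 reads in the exhausted and 3244 in the effector library, a 2.96-fold lower count (2.77 to 3.16). Its level was 25.2 in the exhausted and 74.5 in the effector library, 9th and 6th of the 10 genes. Foxo3, the other FOXO gene of T cells, was scarce, with 57 reads in the exhausted and 52 in the effector library. Foxo1 kept 96.3% of the summed level of both in the exhausted library and 98.7% in the effector library. Foxo4 had 25 reads in the exhausted and 19 in the effector library, and Foxo6 had 0 in both.

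Of 12 known target genes of FOXO1, all measured, 1 was higher, 1 was lower and 10 were neither, with a median log2 ratio of -0.20. The share called was 16.7%, near the 13.7% of all measured genes. S1pr1, which encodes the receptor for exit from lymphoid organs, had 7183 reads in the exhausted and 6652 in the effector library (0.995, 0.963 to 1.03). Ccr7 was at 0.804 (0.775 to 0.834), the interleukin 7 receptor gene Il7r at 0.939 (0.871 to 1.01) and Klf2 at 1.42 (1.36 to 1.47). Ratios below 1 that did not reach 2-fold were also found for Irs2 (0.518, 0.408 to 0.656), the cell death gene Bcl2l11 (0.669, 0.593 to 0.753), Ccng2 (0.711, 0.651 to 0.777) and Sesn1 (0.768, 0.704 to 0.838). The gene called lower was Pik3ip1, which encodes an inhibitor of PI3 kinase (458 reads in the exhausted and 1449 in the effector library, 3.43-fold, 3.09 to 3.82). Sesn3, a stress-induced sestrin gene, was 2.30-fold higher (586 reads in the exhausted and 235 in the effector library, 1.97 to 2.69).

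Foxp1 differed little. Foxp1 (ENSMUSG00000030067, chromosome 6, 98925338 to 99522721, minus strand) had 2823 reads in the exhausted and 2709 in the effector library and levels of 46.2 in the exhausted and 48.1 in the effector library. The log2 ratio was -0.06, with an interval of -0.14 to 0.02. Foxp4, a relative with less well known roles in T cells, was 2.15-fold higher (423 reads in the exhausted and 181 in the effector library, 1.81 to 2.58). Foxp3, the factor gene of regulatory T cells, was 3.98-fold lower on few reads (12 in the exhausted and 44 in the effector library, 2.07 to 8.27). Foxp2 had 0 reads in the exhausted and 1 in the effector library. Foxp1 took 78.3% of the summed level of Foxp1, Foxp3 and Foxp4 in the exhausted and 86.9% in the effector library. An annotated gene on the same strand, Gm20696, shares 300 exon bases with Foxp1 and had 214 reads in the exhausted and 253 in the effector library. Reads of such neighbours could be split either way.

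Klf3 (ENSMUSG00000029178, chromosome 5, 64803523 to 64830129, plus strand), which encodes a repressor of the KLF family, had 2056 reads in the exhausted and 2136 in the effector library. Its level was 104 in the exhausted and 118 in the effector library, and its log2 ratio -0.17 (-0.26 to -0.09). The interval excluded equality, but the difference was far from 2-fold. Klf2, the family member that keeps T cells quiescent and circulating, was more abundant, with levels of 394 in the exhausted and 279 in the effector library. Klf3 therefore took 20.9% of the summed level of Klf2 and Klf3 in the exhausted and 29.7% in the effector library. Of 12 other KLF genes 7 were measured, 0 higher, 3 lower and 4 neither, which is 42.9% called against 13.7% of all measured genes. Klf10 (2.33-fold), Klf7 (2.22-fold) and the immediate early gene Klf6 (2.16-fold) were lower.

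**Figure D4:**
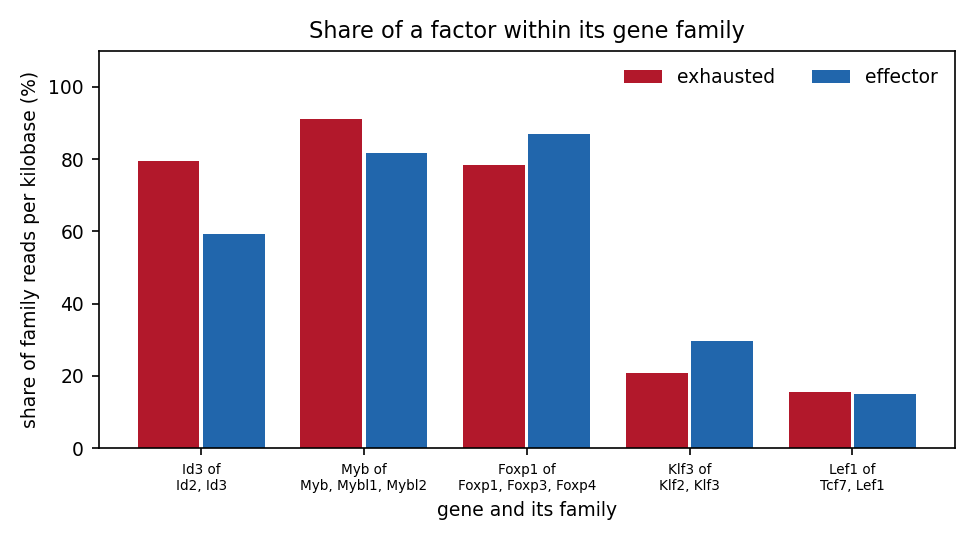
Shares of Id3, Myb, Foxp1, Klf3 and Lef1, each in the summed level of the pair or family members named under its bars. Shares are in percent of reads per kilobase, in the exhausted library (red, left) and the effector library (blue, right), 1 library each. Foxo1, Bach2, Bcl11b and Satb1 are not drawn. Id3 took 79.6% in the exhausted and 59.4% in the effector library, Myb 91.2% in the exhausted and 81.6% in the effector library.

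Bach2 was the scarcest of the 10 genes in either library. Bach2 (ENSMUSG00000040270, chromosome 4, 32238804 to 32586108, plus strand) had 622 reads in the exhausted and 682 in the effector library. Its level was 8.23 in the exhausted and 9.79 in the effector library, with a log2 ratio of -0.25 (-0.41 to -0.09). Bach1 had 25 reads in the exhausted and 30 in the effector library, and Bach2 took 94.3% of the summed level of the pair in the exhausted and 93.8% in the effector library. None of the 8 other measured bZIP genes of its list passed the rule, which called 13.7% of all measured genes. In so short a list this tells little. Bach2os, on the opposite strand of Bach2, had 5 reads in the exhausted and 11 in the effector library. Of the bZIP genes, the AP-1 genes Junb (2107 reads in the exhausted and 3533 in the effector library, 1.82-fold lower), Jun (1.70-fold lower) and Jund (1.66-fold lower) had ratios below 1. Mafk, a small MAF partner of BACH proteins, had a ratio of 1.54.

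Of 15 genes listed as effector fate factors 14 were measured, 5 higher, 3 lower and 6 neither, and their median log2 ratio was 0.44. The share called was 57.1%, against 13.7% of all measured genes. The higher ones were Nfil3, Maf, Tox, Irf4 and Rora, and the list name does not describe all of them, since TOX is known in mouse CD8 T cells for its role in exhaustion. Prdm1, which encodes Blimp-1 and is known to be repressed by BACH2, had 4 reads in the exhausted and 75 in the effector library, and Tbx21, which encodes T-bet, had 45 in the exhausted and 694 in the effector library. Eomes had 10 reads in the exhausted and 53 in the effector library, so all 3 were lower. Nfil3 had 366 reads in the exhausted and 21 in the effector library. Bhlhe40 (ratio of 0.645) and Hif1a (1.12) were not called.

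Of 20 listed surface and survival genes of naive and stem-like cells 19 were measured, 3 higher, 4 lower and 12 neither, around a median log2 ratio of -0.09. That is 36.8% called, against 13.7% of all measured genes. Slamf6, a surface marker of stem-like exhausted T cells, was 2.45-fold higher (10091 reads in the exhausted and 3791 in the effector library). The oxysterol receptor gene Gpr183, named after its value was seen, was 2.34-fold higher. Sidt1 was lower (495 reads in the exhausted and 2334 in the effector library, 5.12-fold), as was the actin crosslinker gene Actn1 (460 reads in the exhausted and 1657 in the effector library, 3.91-fold). Cxcr5, which guides cells into B cell follicles, had 137 reads in the exhausted and 1413 in the effector library. Over all 10 related lists, 88 distinct genes other than the 10 factors were measured, and 14 were higher and 13 lower, which is 30.7% called, against 13.7% of all measured genes. The 10 factors and the lists were chosen with earlier results of these data known. The shares called among them are therefore not independent of these data.

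**Figure D5:**
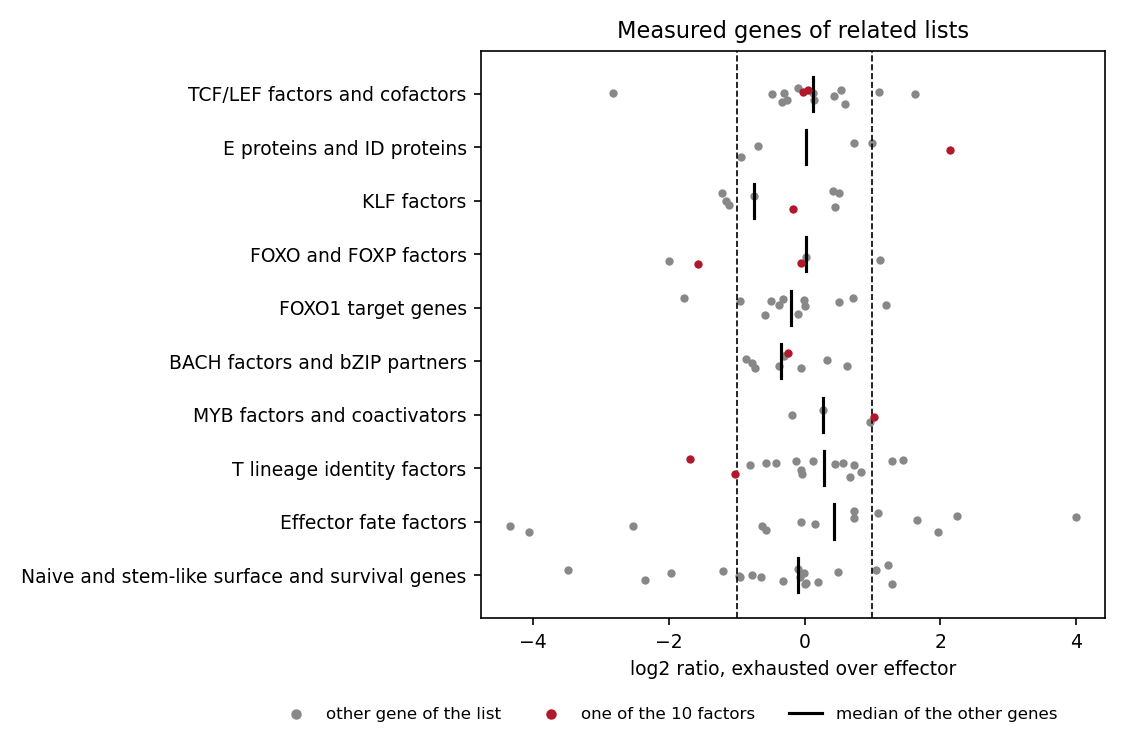
Log2 ratio, exhausted over effector, of each measured gene of the 10 related lists. Red points are the 10 factors, grey points the other genes of each list, black bars the median of the other genes and dashed lines 2-fold. The black bars lie between -0.74 for KLF factors and 0.44 for effector fate factors, and all of them lie within 2-fold.

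The order of levels within a library also differed. In the exhausted library it was Tcf7, Id3, Lef1, Klf3, Foxp1, Satb1, Myb, Bcl11b, Foxo1 and Bach2, and the counting intervals of Myb and Bcl11b overlapped. In the effector library it was Tcf7, Id3, Lef1, Satb1, Klf3, Foxo1, Bcl11b, Foxp1, Myb and Bach2, and the intervals of Id3 and Lef1 overlapped. Only 4 of the 10 genes held the same place in both.

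Several properties of the libraries were set beside these differences. Measured protein-coding genes were split into 5 equal groups by mRNA length, and the group with the longest mRNAs had a median log2 ratio of 0.18, against -0.10 in the group with the shortest. Satb1, Foxo1 and Bcl11b were all in the group of longest mRNAs, where 5.66% of genes were called lower. Id3 was in the group of shortest mRNAs, where 4.19% were called higher. The same genes were also split into 5 groups by genomic span. Satb1, Foxo1 and Bcl11b were all in the group of longest span, where 9.22% were called lower and 10.3% higher. Id3 was in the group of shortest span, where 5.55% were called higher. The B cell genes Ms4a1 and Blk had 0 reads in both libraries, and the 7 B cell markers summed to 20 reads in the exhausted and 23 in the effector library. Markers of other cells that were called higher in the exhausted library were Itgam (183 reads in the exhausted and 22 in the effector library) and the NK receptor gene Klrb1c (229 in the exhausted and 36 in the effector library). Those called lower were Cd8b1 (81 in the exhausted and 164 in the effector library), the plasma cell gene Jchain (20 in the exhausted and 47 in the effector library) and the haemoglobin gene Hba-a1 (6 in the exhausted and 50 in the effector library). Other macrophage and NK markers ran against Itgam and Klrb1c, with 10 reads of Lyz2 and 2 of Gzma in the exhausted library and 37 of Lyz2 and 20 of Gzma in the effector library. The part of mRNA length, of genomic span and of these markers in the results was not tested.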

How the data were processed

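RNA of sorted spleen TEa cells was measured in 2 low-input libraries, 1 per group. The authors deposited raw read counts by gene in 1 table, as whole numbers; per the file headers it also gives gene position and length. Reads were handled with STAR 2.6 on mm10, per the submitters' processing notes. The counting program, its strand setting and the annotation were not given in the sources used here, so reads of antisense neighbours cannot be told apart.

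Columns were mapped to samples by title. Counts were divided by TMM effective library sizes (edgeR 4.0.16, R 4.3.3). Intervals are exact Clopper-Pearson or Poisson intervals at 95% (scipy 1.17.1). A library at 0 reads was set to a floor of 3 reads. Levels are reads per kilobase of the table's gene length per 1000000 counted reads and depend on that length. Alternatives were scaling by total counts, by upper quartile or by size factors of DESeq2 1.42.0, protein-coding genes only, thinning, other read minimums and stricter size rules. Exon overlap was taken from GENCODE M21, and promoter windows from RefSeq (GRCm38.p6), which matched 10 of 10 genes.

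The 10 factors and the 10 related lists, with 10 marker lists, were chosen with earlier results of these data known. Named genes were the 10 factors, their gene families, the called genes of each list that differed most (up to 4), and the 3 protein-coding genes nearest in level to each called factor. Values were known when other list members were picked to be named. Values of a few list genes are not reported here.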

Additional observations from a re-analysis of the deposited data

How the results depend on the processing

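With 1 library per group, no replicate could be left out. No paired analysis was possible because each group holds 1 library. Under DESeq2 size factors, total counts, upper quartile, protein-coding genes only and thinning of the deeper library, each of the 10 factors kept its call, and Bcl11b came nearest to the limit at a log2 ratio of -1.002, while the log2 ratio of Tcf7 ran from -0.028 to 0.001. With the interval wholly beyond 2-fold, Id3 alone stayed higher (1 gene) and Satb1 and Foxo1 stayed lower; over all measured genes 4.05% were then higher and 4.56% lower. At 4-fold, 1 factor was higher (Id3) and 0 were lower, against 2.2% and 2.41% of all genes. With at least 500 reads, 3.97% of all genes were higher and 4.3% lower. Among distinct genes of the related lists other than the 10 factors, 14 were higher and 13 lower as reported. With the interval wholly beyond 2-fold, 9 of these genes were higher and 10 lower. With at least 500 reads, where fewer genes are measured, 11 were higher and 8 lower. As shares of raw reads, Lef1 took 21.4% of its pair in the exhausted and 20.56% in the effector library, Bach2 96.14% (exhausted) and 95.79% (effector), Foxp1 86.65% (exhausted) and 92.33% (effector), and Klf3 24.91% (exhausted) and 34.6% (effector), each shifted by gene length and with the same direction between libraries. Medians of short lists moved by more than 0.1 with the read minimum in 14 cases, and changed sign for TCF/LEF cofactors (-0.10 with a minimum of 1 read) and for E and ID proteins (-0.68 with 500 reads). Depth did not limit the 10 factors, but genes such as Foxp3, Prdm1 and Tle1 rest on few reads.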

Other observations

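Some measured protein-coding genes lay nearest to a called factor in both libraries at once, by distance in log2 level over the 2 libraries, which is too few points to speak of a shared pattern. Nearest to Id3 were Folr4, which encodes folate receptor 4 (levels of 996 in the exhausted and 180.0 in the effector library, distance 0.31), S100a11 (0.59) and Slamf6 (0.74). These neighbours of Id3 lay farther off than those of the other called factors. In the exhausted library Id3 ranked 36th among measured protein-coding genes, and the other called factors ranked from 2060th (Satb1) to 3266th (Foxo1). Few genes therefore had a level as high as Id3, and the part of this in the distances was not tested. Nearest to Foxo1 were Ppp1r15a, which encodes the stress phosphatase subunit GADD34 (0.06), Themis, a gene of T cell receptor signalling (0.08, 1128 reads in the exhausted and 3093 in the effector library), and Npc2 (0.19). Nearest to Satb1 were Epsti1, Trib2 and Cdkn2d. Paqr7, Map3k5 and Btbd11 lay nearest to Myb, and Txndc15, Smap2 and the interleukin 6 receptor gene Il6ra lay nearest to Bcl11b.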
